A study of Homo sapiens with 17 samples.

Results

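MDM2, MDM4, CDKN1A, BBC3, BAX, GADD45A, PPM1D, SESN1 and RRM2B are 9 genes of the p53 network, chosen by name, of the 15660 (36 h) and 17023 (72 h) genes that had a read. Their ribosome footprints and mRNA were read in 17 libraries of HEK293, a human embryonic kidney cell line that holds adenoviral proteins which blunt p53. The cells were electroporated with ribonucleoproteins of either Cas9 (300 pmol), which cuts DNA, or dCas9, its catalytically inactive form, in complex with a guide RNA (300 pmol) against intron 12 of JAK2. Both groups thus carried the same guide, and each replicate was a plate seeded from pooled electroporations. At 36 h there were 3 mRNA and 2 footprint libraries of Cas9 cells and 2 of each kind of dCas9 cells. At 72 h every combination of nuclease and library type had 2 libraries. The guides were synthetic at 36 h and transcribed in vitro at 72 h, and the annotation also differed, so that time cannot be told apart from these changes, and each time point was analysed alone. The comparison of Cas9 with dCas9 asks how the cells responded to the DNA break at 36 h and at 72 h.

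p53 is a transcription factor that is kept scarce by MDM2, a ubiquitin ligase that marks it for degradation, and by MDM4, a relative of MDM2 that binds p53 and blocks its activity. After DNA damage p53 is released from both and switches on genes that halt the cell cycle, repair DNA or trigger apoptosis. MDM2 is itself such a target, so the network holds a negative feedback loop, and PPM1D (the phosphatase WIP1) is a further target that dampens the damage signal. A HEK293 cell, whose adenoviral proteins bind p53 and its partners, is known as a line in which p53 protein is abundant but its activity is restrained.

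Among the best known features of p53 targets is the p53 response element, 2 adjacent copies of a 10-base element with a C and a G at fixed places. To show where sequences like this element lie at these genes, the reference genome (hg38) was searched from 3000 bases before to 2000 bases after the annotated start of 20033 protein-coding genes. The consensus of the element reads the same on both strands, copies with a spacer were not searched, and the C and G of each copy had to match. A match with at most 3 mismatches to the 20-base consensus was found in the windows of 21.4% of all genes and of 7 of the 9 genes, and 1 with at most 2 mismatches in 3.79% of all genes and in 4 of the 9. No match with at most 3 mismatches lay in these windows of MDM4 and SESN1, which surround only the first annotated start of each gene. The later starts of MDM4-202, MDM4-213, SESN1-201 and SESN1-202 lay outside the windows, and their surroundings were not searched. The closest match of each gene is printed on the gene's strand with the element in capitals and flanking bases in lower case, except that of RRM2B, which is not shown.
GADD45A: gtacaGAACATGTCTAAGCATGCTGgggac
MDM2: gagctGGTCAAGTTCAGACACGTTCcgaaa
CDKN1A: gtcagGAACATGTCCCAACATGTTGagctc
BAX: cccccGGGCAGGCCCGGGCTTGTCGcccgc
BBC3: cgcgcCTGCAAGTCCTGACTTGTCCgcggc
PPM1D: gtgcaGCACTTGTTCCGGCCAGCTCacaat

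The GADD45A element, with 1 mismatch, lay in intron 3 (chr1:67686775-67686794, plus strand), and a match with at most 1 mismatch was found at 0.494% of all genes. The MDM2 element, with 2 mismatches, lay in intron 1 (chr12:68808923-68808942, plus strand), 755 bases after the first start of the gene and 280 bases before the next listed start. CDKN1A held 2 mismatches at the upstream end of the gene (chr6:36676449-36676468, plus strand), 2256 bases before the start of the transcript that was counted. In BAX the match with 2 mismatches was in intron 1 (chr19:48955213-48955232, plus strand). BBC3 held 3 mismatches in intron 1 of BBC3-204, the transcript counted at 72 h (chr19:47231320-47231339, minus strand). This match lay 130 bases before the start of BBC3-203, the transcript counted at 36 h. PPM1D held 3 mismatches at 464 bases before its start (chr17:60599720-60599739, plus strand). These matches describe letters of the reference, and p53 binding was not measured.

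The libraries held between 689636 and 8864461 footprints and between 25095505 and 42825667 mRNA reads. The footprint library of dCas9 replicate e at 36 h was the shallowest, and it held 8 to 102 footprints per gene of the network, 8 of RRM2B and 9 of MDM4. The mRNA of dCas9 replicate a at 72 h stood apart, and its deviation from the mean of the 4 mRNA libraries rose with coding GC content over 10856 genes (Spearman's rho across genes 0.78, between -0.445 and -0.326 in the other 3 libraries). The coding sequences of MDM2, MDM4, SESN1 and RRM2B, at 40.2% to 42.6% GC, were below the median gene (51.7%). Without this library, with replicate b as the lone dCas9 mRNA library, the mRNA log2 changes at 72 h were 0.074 for RRM2B, 0.13 for SESN1 and -0.051 for MDM2. They were -0.16 for BAX, -0.14 for GADD45A and 0.16 for PPM1D. Those of MDM4 (-0.38), CDKN1A (0.42) and BBC3 (0.25) were larger in size than with the library included (-0.16, 0.18 and 0.051). At 36 h the corresponding correlation over 8994 genes was 0.543 for the mRNA of Cas9 replicate a, between -0.452 and 0.21 for the other 4 mRNA libraries and between -0.37 and 0.155 for footprints. No GC correction was made at 36 h, and no gene of the 9 was called when Cas9 replicate a was left out of the mRNA. Of 6 HEK293 markers, NEFL, NEFM, VIM, LIN28B and CDH2 were read in every library, while PAX2 was near 0. The summed level of the 6 in mRNA was 1176 to 1227 CPM (counts scaled to a common library total) in Cas9 and 1215 to 1302 in dCas9 cells at 36 h, and 915 to 1020 and 845 to 929 at 72 h. NEFM alone passed the test in mRNA at 72 h (log2 change -0.89 ± 0.21 SE, adjusted p = 0.0711, edgeR's quasi-likelihood test), and its part in the results below was not tested. The markers of K562, a leukaemia line also used in the study, summed to at most 22 counts in any library.

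To compare genes with each other, CPM were divided by the length of the counted coding part (CPM per kilobase). In mRNA, BAX, which permeabilizes the mitochondrial outer membrane in apoptosis, was the highest of the 9 genes at 36 h, at 187 ± 19.9 CPM per kilobase (SD, n = 5), the 90.5th percentile of all tested genes. MDM2 came next, at 80.2 ± 6.81, above PPM1D at 47.2 ± 3.25, and the 3 did not overlap between libraries. BBC3 (the apoptosis inducer PUMA), MDM4, SESN1, GADD45A, RRM2B and CDKN1A followed between 32.6 and 11.2 CPM per kilobase, each overlapping its neighbour. BBC3 was counted on transcript BBC3-203 (173 codons) at 36 h and on BBC3-204 (242 codons) at 72 h, and every other gene on the same transcript at both times. CDKN1A, which encodes the cell cycle inhibitor p21, was thus at the lower end, at the 15.6th percentile of all genes. The order at 72 h was similar at both ends, with BAX at 104 ± 12.5 and MDM2 at 89.7 ± 11.8 CPM per kilobase (SD, n = 4), which overlapped, and CDKN1A at 8.32 ± 1.19, below GADD45A at 12.8 ± 2.00 without overlap.

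Footprints followed another order. BAX was again the highest, at 249 ± 48.2 CPM per kilobase at 36 h (SD, n = 4) and 152 ± 15.6 at 72 h (SD, n = 4). The next highest means were those of BBC3, at 58.1 ± 20.7 and 55.6 ± 7.03, and by GADD45A, whose product interacts with p21 and PCNA and acts in growth arrest, at 54.0 ± 21.2 and 40.5 ± 8.07. MDM2, which was the second of the 9 genes in mRNA, had lower means than both, at 37.4 ± 10.8 and 32.1 ± 4.60 CPM per kilobase, but its libraries overlapped those of GADD45A at both times and those of BBC3 at 36 h. MDM4 was the lowest at both times, at 10.6 ± 4.24 and 6.21 ± 1.09, the 20.0th and the 19.1th percentile of all tested genes, although its mRNA was at the 48.4th and the 61.6th. At 72 h the MDM4 footprints lay below those of every other member in all 4 libraries, whereas at 36 h they overlapped with RRM2B and SESN1.

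**Figure D1:**
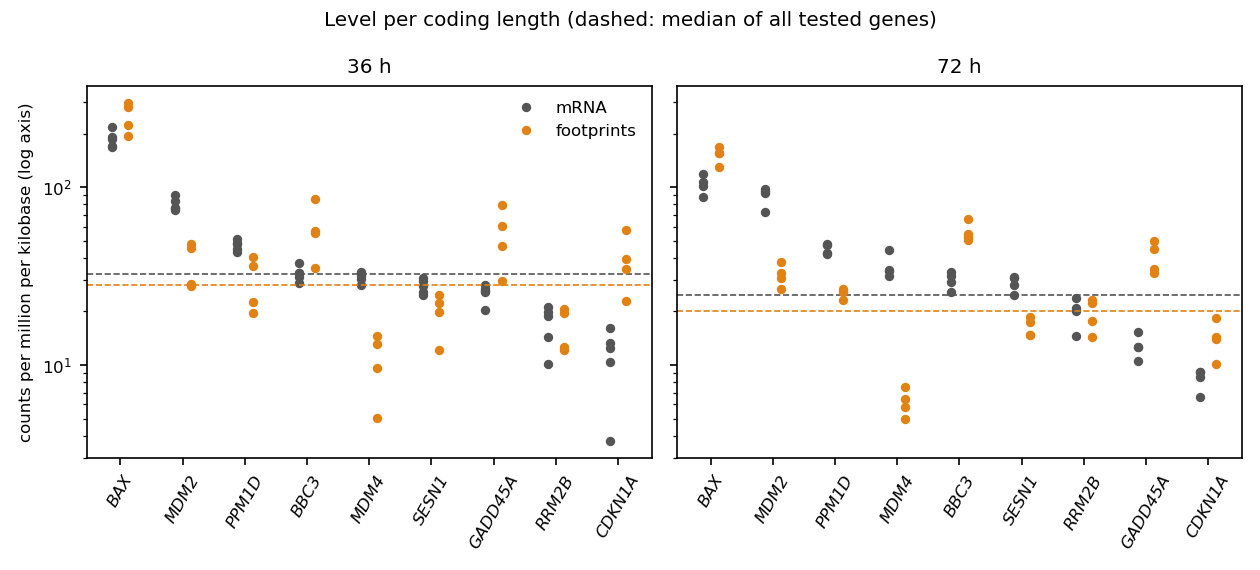
Level of each of the 9 genes in CPM per kilobase of counted coding length (log axis), in mRNA (grey) and footprints (orange), 1 point per library, at 36 h (5 mRNA and 4 footprint libraries) and 72 h (4 and 4), ordered by mean mRNA level, with the median of all tested genes as a dashed line. MDM4 footprints sit at the bottom at both times, with means of 10.6 and 6.21, while BAX leads in both library types.

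Cas9 was first compared with dCas9 at 36 h in the regulators of p53. No gene of the 9 changed at a false discovery rate of 0.1 in footprints, mRNA or translational efficiency (footprints relative to mRNA). Among all 9016 tested genes this threshold was passed by 0% in footprints (188 genes at an unadjusted p under 0.05, and 0 genes passed with DESeq2), 0.0222% in mRNA and 0% in translational efficiency (568 genes at an unadjusted p under 0.05, and 1 with DESeq2). At an unadjusted p under 0.05 were 1, 1 and 2 of the 9 genes, against 2.09%, 4.68% and 6.3% of all tested genes, and DESeq2 called 0 of them in each comparison. All adjusted p are from edgeR's quasi-likelihood fit, by the Benjamini-Hochberg method over all tested genes. In cell pools, fewer cells that express a gene and less RNA per cell cannot be told apart.

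MDM2 mRNA at 36 h was at 109.1, 129.6 and 119.9 CPM in Cas9 and at 108.7 and 106.6 CPM in dCas9 cells, and its footprints at 68.8 and 40.0 against 65.0 and 40.6 CPM. The Cas9 mRNA libraries all lay above both dCas9 libraries, by a log2 change of 0.15 ± 0.11 (SE, adjusted p = 0.999, edgeR), while footprints overlapped. MDM4 mRNA overlapped, at 42.7, 46.2 and 44.7 against 46.9 and 39.8 CPM. Its footprints were at 20.4 and 18.6 CPM in Cas9 and at 7.06 and 13.5 CPM in dCas9 cells, without overlap. They rested on 19, 46, 35 and 9 reads, and the log2 change of 1.01 ± 0.82 (SE) had a 95% confidence interval from -0.72 to 2.74. For translational efficiency of MDM4 it was 1.18 ± 0.43 (SE, unadjusted p = 0.0152, adjusted p = 0.780, edgeR), the 98.8th percentile of all tested genes.
PPM1D went the opposite way. Its footprints at 36 h were at 39.8 and 34.3 CPM in Cas9 and at 63.6 and 70.7 CPM in dCas9 cells, without overlap, whereas its mRNA overlapped at 85.2, 90.2 and 79.2 against 75.4 and 84.3 CPM. Within lysates, the ratio of footprint to mRNA CPM was 0.467 and 0.433 in Cas9 and 0.844 and 0.839 in dCas9 cells. Translational efficiency of PPM1D differed by -0.94 ± 0.27 (log2, SE, unadjusted p = 0.00374, adjusted p = 0.780, edgeR), and by -1.06 to -0.79 under the alternatives. For PPM1D and MDM4 the SE of translational efficiency was below that of footprints fitted alone (0.38 and 0.82). The joint fit gave each gene 1 spread for both library types, so these SE and p may be too small. With lysate as a block the log2 changes were -0.90 ± 0.38 for PPM1D and 1.11 ± 0.62 for MDM4 (SE).

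The arrest genes were read thinly. CDKN1A mRNA was at 4.50, 6.96 and 5.78 CPM in Cas9 and at 5.39 and 1.61 CPM in dCas9 cells at 36 h, with dCas9 replicate e the lowest at 46 reads. The log2 change of 0.73 ± 0.37 (SE) was not called (adjusted p = 0.999, edgeR). Without dCas9 replicate d, with the low replicate e as the lone dCas9 library, it was 1.83 and passed (adjusted p = 0.0246), beside 152 genes called higher and 66 lower in all, so that this call rests on a single library. CDKN1A footprints were at 24.7 and 16.9 against 9.89 and 15.04 CPM, on 10 to 49 reads. GADD45A mRNA overlapped at 11.6, 12.2 and 8.82 against 11.2 and 11.4 CPM. GADD45A footprints were at 12.9 and 20.2 CPM in Cas9 and at 26.2 and 34.6 CPM in dCas9 cells, so that both Cas9 libraries were below both dCas9 libraries (log2 change -0.82 ± 0.60 SE, 95% confidence interval from -2.08 to 0.44).

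The apoptosis and repair genes mostly overlapped at 36 h. BAX mRNA was at 95.7, 88.3 and 87.2 CPM in Cas9 and at 98.4 and 113 CPM in dCas9 cells, without overlap, by a log2 change of -0.22 ± 0.11 (SE, unadjusted p = 0.0435, adjusted p = 0.999, edgeR). BAX footprints, BBC3 mRNA and BBC3 footprints overlapped between the groups. RRM2B, the p53-induced subunit of ribonucleotide reductase, was at 14.3, 20.97 and 18.8 against 19.7 and 10.1 CPM in mRNA. Its log2 change of 0.28 ± 0.21 (SE) became 0.83 without the mRNA of dCas9 replicate d, again with replicate e as the lone dCas9 library. SESN1, a stress-induced inhibitor of mTORC1 signalling, overlapped in mRNA and in footprints.
Of the 9 genes, 2 had every Cas9 footprint library above every dCas9 library (CDKN1A and MDM4) and 2 below (GADD45A and PPM1D), against 15.9% and 14.6% of all tested genes. In mRNA this was 1 above (MDM2) and 1 below (BAX), against 8.60% and 8.29%.

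**Figure D2:**
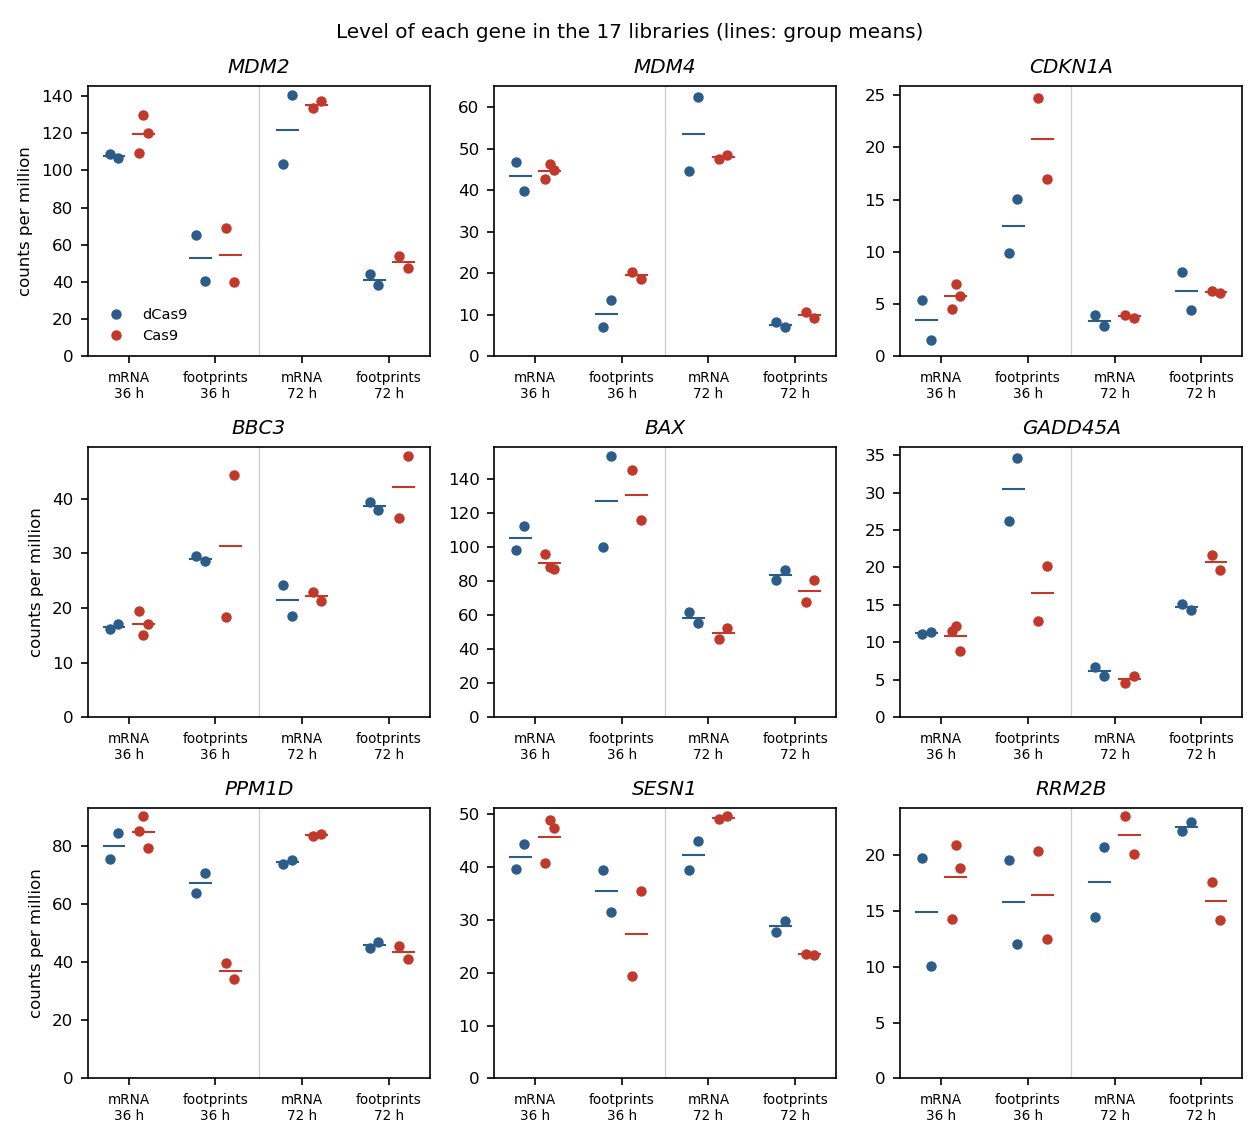
CPM (linear axis from 0) of each gene in dCas9 (blue) and Cas9 (red) libraries, for mRNA and footprints at 36 h and 72 h. Points are libraries and lines are group means, and PPM1D footprints at 36 h (34.3 and 39.8 against 63.6 and 70.7) and GADD45A footprints at both times are among those without overlap.

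At 72 h again no gene of the 9 was called in any of the 3 comparisons (edgeR's quasi-likelihood test, adjusted p between 0.281 and 1.00). Of 10896 tested genes, 0.0367% passed in footprints (4 genes, with 417 at an unadjusted p under 0.05), 2.69% in mRNA (3 higher and 290 lower) and 0.716% in translational efficiency (76 higher and 2 lower). At an unadjusted p under 0.05 were 3, 0 and 3 of the 9 genes, against 3.83%, 14.8% and 11.2% of all tested genes, and DESeq2 called 0 of them in each. With a correction for GC content the mRNA calls were split into 1030 higher and 1397 lower, and among them were MDM4, lower by -0.28 ± 0.084 (log2, SE, adjusted p = 0.0521), and PPM1D, higher by 0.21 ± 0.072 (adjusted p = 0.0734).

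MDM2 footprints were at 54.1 and 47.3 CPM in Cas9 and at 44.4 and 38.2 CPM in dCas9 cells at 72 h. Both Cas9 libraries were the higher ones, by a log2 change of 0.29 ± 0.14 (SE, unadjusted p = 0.0432, adjusted p = 1.00, edgeR). Its mRNA was at 134 and 137 CPM in Cas9 and at 104 and 140 CPM in dCas9 cells, with the low value in dCas9 replicate a. The log2 change of MDM2 mRNA was 0.15 ± 0.15 (SE) with both dCas9 libraries and -0.051 ± 0.10 (SE) without dCas9 replicate a. When dCas9 replicate b was left out instead, so that the comparison was with dCas9 replicate a alone, MDM2, SESN1 and RRM2B were called higher by 0.39, 0.32 and 0.60 (adjusted p = 0.0411, 0.0817 and 0.0365, edgeR), in a comparison that called 1726 of the 10896 genes higher and 1102 lower.
MDM4 footprints at 72 h were at 10.7 and 9.16 against 8.19 and 7.05 CPM, without overlap, on 34 to 62 reads (log2 change 0.37 ± 0.31 SE). MDM4 mRNA was at 47.5 and 48.5 CPM in Cas9 and at 44.7 and 62.3 CPM in dCas9 cells, and the 2 dCas9 libraries enclosed both Cas9 values. The translational efficiency of MDM4 differed by 0.53 ± 0.30 (log2, SE, adjusted p = 0.543, edgeR), and by 0.73 ± 0.26 without dCas9 replicate a. PPM1D mRNA was at 83.5 and 83.9 CPM in Cas9 and at 73.7 and 75.2 CPM in dCas9 cells, without overlap (log2 change 0.17 ± 0.12 SE). Its footprints at 72 h overlapped (45.6 and 41.0 against 45.0 and 46.9 CPM), and the log2 change of their translational efficiency was -0.26 ± 0.17 (SE), with a 95% confidence interval from -0.63 to 0.10.

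The arrest genes were again read thinly at 72 h. GADD45A footprints were at 21.7 and 19.7 CPM in Cas9 and at 15.2 and 14.3 CPM in dCas9 cells, both Cas9 libraries above, with a log2 change of 0.48 ± 0.21 (SE, unadjusted p = 0.0313, adjusted p = 1.00, edgeR). The GADD45A mRNA lay on the other side, at 4.60 and 5.51 against 6.74 and 5.55 CPM. The translational efficiency of GADD45A was higher by a log2 change of 0.76 ± 0.29 (SE, unadjusted p = 0.0182, adjusted p = 0.339, edgeR), or 0.61 ± 0.31 without the mRNA of dCas9 replicate a. Without dCas9 replicate b it was 0.95 and passed (adjusted p = 0.0849), in a comparison that called 592 genes higher and 473 lower. CDKN1A overlapped in footprints (6.29 and 6.10 against 8.04 and 4.43 CPM) and in mRNA (3.96 and 3.71 against 3.95 and 2.87 CPM), and the log2 change of its footprints, 0.0093, had a 95% confidence interval from -0.76 to 0.78.

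RRM2B had the largest decrease of footprints among the 9 genes at 72 h. It was at 17.6 and 14.2 CPM in Cas9 and at 22.2 and 22.96 CPM in dCas9 cells, without overlap, with a log2 change of -0.53 ± 0.21 (SE, unadjusted p = 0.0148, adjusted p = 1.00, edgeR). The mRNA of RRM2B was at 23.6 and 20.1 against 14.5 and 20.8 CPM, overlapping, with dCas9 replicate a the lowest. Translational efficiency of RRM2B differed by -0.83 ± 0.29 (log2, SE, unadjusted p = 0.0109, adjusted p = 0.281, edgeR), the 1.07th percentile of all tested genes. This was -0.62 ± 0.26 without the mRNA of dCas9 replicate a and -1.07 without that of dCas9 replicate b, each time with a lone dCas9 mRNA library.
SESN1 showed the same signs, with footprints at 23.6 and 23.4 against 27.7 and 29.9 CPM and mRNA at 49.0 and 49.7 against 39.5 and 45.0 CPM. Neither overlapped, and the translational efficiency of SESN1 differed by -0.52 ± 0.20 (log2, SE, unadjusted p = 0.0210, adjusted p = 0.350, edgeR). With GC correction the mRNA log2 change was 0.060 for SESN1 and 0.16 for RRM2B, against 0.22 and 0.31 without it. Translational efficiency then differed by -0.33 for SESN1 and -0.67 for RRM2B. BAX mRNA lay between 45.9 and 52.7 CPM in Cas9 and between 55.2 and 61.6 CPM in dCas9 cells, by -0.24 ± 0.14 (log2, SE), while its footprints overlapped, and BBC3 overlapped in both. In footprints, 3 of the 9 genes lay above (GADD45A, MDM2 and MDM4) and 2 below (RRM2B and SESN1) without overlap, against 15.8% and 15.9% of all tested genes. In mRNA, 2 lay above (PPM1D and SESN1) and 2 below (BAX and GADD45A), against 24.4% and 25.2%.

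**Figure D3:**
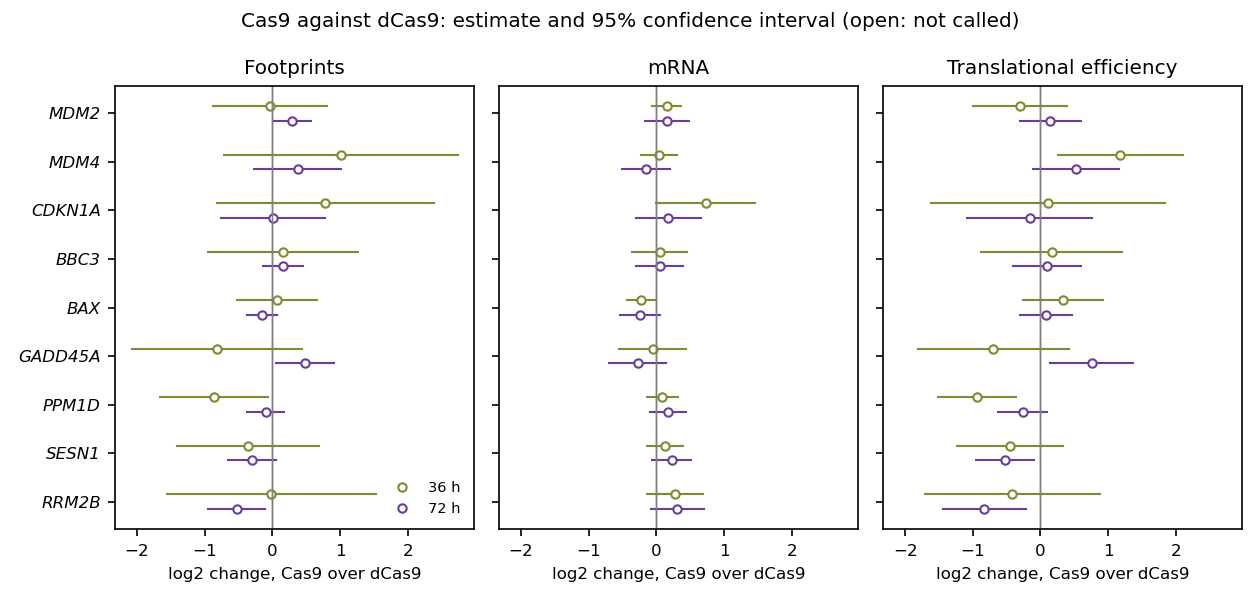
Log2 change of Cas9 over dCas9 for each gene in footprints, mRNA and translational efficiency at 36 h (green) and 72 h (purple), with 95% confidence intervals from edgeR; all points are open, since none was called. Intervals at 36 h are wide, as for MDM4 footprints from -0.72 to 2.74 and CDKN1A translational efficiency from -1.61 to 1.83.

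How many footprints each mRNA carried was asked next in the dCas9 cells, as the log2 ratio of footprints to mRNA relative to all tested genes. At 72 h all 9 genes differed from the typical gene at a false discovery rate of 0.1, and at 36 h 5 of the 9, against 70.6% and 48.2% of all tested genes, so that a call by itself is common here. MDM4 was the farthest from the typical gene, with a log2 ratio of -2.23 ± 0.32 at 36 h (SE, adjusted p = 8.13e-05, edgeR) and -2.68 ± 0.20 at 72 h (adjusted p = 8.21e-09), the 1.15th and the 0.743th percentile of all tested genes. MDM2 was on the same side, at -0.76 ± 0.23 (adjusted p = 0.0183) and -1.42 ± 0.15 (adjusted p = 4.83e-07), the 19.1th and the 7.98th percentile. Both inhibitors of p53 thus carried fewer footprints for their mRNA than the typical gene.

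The arrest and apoptosis genes lay on the other side. GADD45A was at 1.53 ± 0.38 at 36 h (log2, SE, adjusted p = 0.00498, edgeR) and 1.41 ± 0.20 at 72 h (adjusted p = 1.48e-05), the 95th and the 94th percentile. CDKN1A was at 1.87 ± 0.61 (adjusted p = 0.0245) and 0.99 ± 0.30 (adjusted p = 0.00772), and BBC3 at 0.96 ± 0.36 (adjusted p = 0.0459) and 1.00 ± 0.17 (adjusted p = 6.79e-05). BAX was at 0.66 ± 0.13 at 72 h (adjusted p = 0.000264) and was not called at 36 h (0.34 ± 0.20). At 72 h RRM2B was also called above the typical gene (0.50 ± 0.19), and PPM1D (-0.55 ± 0.12) and SESN1 (-0.41 ± 0.14) below it, while none of these 3 was called at 36 h. SESN1 was counted on SESN1-204 (532 codons). The shorter SESN1-202 (473 codons) held more footprints in every 72 h library, as in dCas9 cells with 192 and 270 against 186 and 263. Its mRNA counts there were lower, at 1243 and 1778 against 1362 and 1914, and its ratio was not tested. The genes called below at 72 h had 471 to 586 counted codons, and those called above had 145 to 332. Coding GC content was 40.2% to 51.2% in the former, and in the latter 41.6% for RRM2B and 58.8% to 74.2% for the others. No GC correction was made for these ratios. The part of coding length and of GC content in them was not tested. The calls of CDKN1A and BBC3 at 36 h and of CDKN1A, RRM2B and SESN1 at 72 h were lost when 1 of the dCas9 libraries was left out, and those of MDM2, MDM4 and GADD45A were not.
In single lysates at 36 h the ratio of footprint to mRNA CPM was 0.479 and 0.415 in Cas9 and 0.151 and 0.340 in dCas9 cells for MDM4. For MDM2 it was 0.630 and 0.333 against 0.598 and 0.381. GADD45A had ratios of 1.12 and 2.29 in Cas9 and 2.35 and 3.04 in dCas9 cells, above those of MDM4 and MDM2 in all 4 lysates. At 72 h, where footprint and mRNA libraries share no lysate label, the ratios of the group means for Cas9 and dCas9 were 0.207 and 0.142 for MDM4, 0.374 and 0.339 for MDM2, 1.62 and 1.83 for CDKN1A, and 4.09 and 2.40 for GADD45A.

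**Figure D4:**
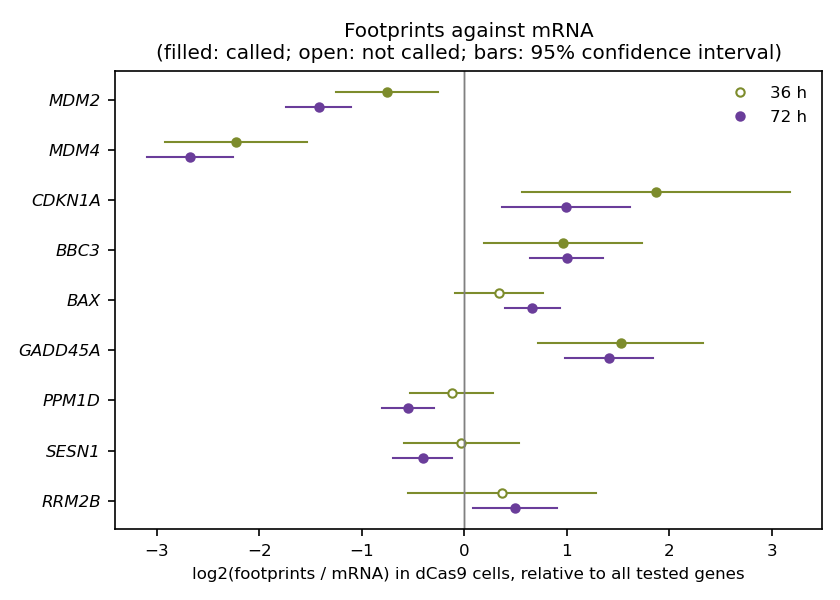
Log2 ratio of footprints to mRNA of each gene in dCas9 cells relative to all tested genes, at 36 h (green) and 72 h (purple), with 95% confidence intervals; filled points were called. MDM4 (-2.23 and -2.68) and MDM2 (-0.76 and -1.42) lie left of 0, and GADD45A (1.53 and 1.41) and CDKN1A (1.87 and 0.99) right of it.

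MDM2 is transcribed from an upstream promoter and from a p53-responsive promoter in the first intron, and the transcripts were examined for what they tell of this. At 36 h MDM2 had 1 listed transcript, MDM2-202, which starts at the upstream end (chr12, position 68808177, GENCODE 44 on hg38). At 72 h 13 were listed, and MDM2-209 starts 14 bases, MDM2-201 287 bases, and the others 1035 or 1049 bases after that position. The counts cover coding sequence only, and a read that fits several transcripts is counted on each. MDM2-209 and MDM2-208 start 1021 bases apart, share 224 counted codons, and carried identical counts in all 8 libraries (74 to 167 footprints and 1489 to 2526 mRNA reads). Use of the upstream and the internal promoter therefore could not be told apart from these counts. The 5 listed transcripts of CDKN1A, with starts up to 2261 bases apart, were likewise identical in every library.
Per counted codon, 9 shorter MDM2 transcripts of 111 to 447 codons carried 0.786 to 0.991 of the mRNA and 0.741 to 1.13 of the footprints of MDM2-202. The 3 shortest, of 30 to 51 codons, differed: MDM2-232 had 0.142 to 0.335 of the mRNA and 0.652 to 1.38 of the footprints per codon, MDM2-216 had 0.0463 to 0.066 and 0.171 to 0.834 on 3 to 16 footprints, and MDM2-231 had 0.543 to 0.738 and 0.537 to 1.14.

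The same was done for MDM4. Its longest transcript, MDM4-203, encodes 490 codons, and MDM4-202, MDM4-205, MDM4-213 and MDM4-216 share codons 1 to 115 with it, MDM4-202 with 50 further bases of its own. These 4 shorter transcripts, at 20.6% to 25.7% of its counted codons, carried 14.0% to 23.1% of its mRNA counts but 38.7% to 76.5% of its footprint counts (22 to 30 of 34 to 62), with no overlap between mRNA and footprint libraries. MDM4-204, which joins codons 1 to 26 with codons 353 to 490, showed the opposite, with 32.4% to 37.6% of the mRNA and 10.9% to 27.4% of the footprints of MDM4-203. MDM4-207 lacks codons 225 to 274 and carried 86.1% to 89.5% of the mRNA, whereas in 3 of the 4 footprint libraries it held every footprint of MDM4-203. The footprints of MDM4 were few and lay towards the beginning of its coding sequence in Cas9 and dCas9 libraries. These shares are a description of counts that share reads, and no test was made.

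**Figure D5:**
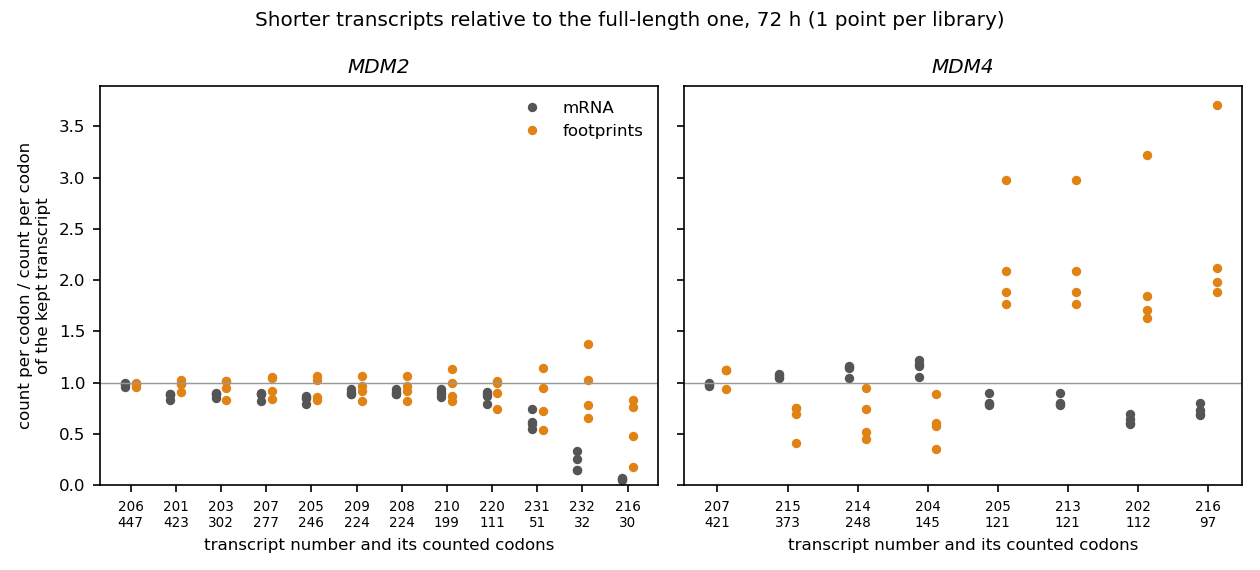
Count per counted codon of each shorter MDM2 (12) and MDM4 (8) transcript at 72 h divided by that of the full-length transcript, in mRNA (grey) and footprints (orange), 1 point for each of 4 libraries; the x axis gives the transcript number and its counted codons, and the line marks 1. The 9 MDM2 transcripts of 111 or more codons lie between 0.741 and 1.13, and the 3 shortest go down to 0.0463 in mRNA and 0.171 in footprints, while MDM4-202, 205, 213 and 216 lie at 0.591 to 0.900 in mRNA and 1.63 to 3.71 in footprints.

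Further genes of the p53 network were taken from lists by role, 71 genes in all including the 9, of which 62 were tested at 36 h and 64 at 72 h. None of the 62 was called at 36 h in footprints, mRNA or translational efficiency, and the median log2 changes were -0.043, 0.026 and 0.0032, against 0.0099, 0.0016 and 0.010 over all tested genes. At an unadjusted p under 0.05 were 2, 6 and 6 of them (edgeR), against 2.09%, 4.68% and 6.3% of all tested genes. In footprints at 36 h among the smallest p of the others were those of PERP (0.70 ± 0.27, log2, SE), an apoptosis effector of the plasma membrane, RPL23 (-0.24 ± 0.15), a ribosomal protein that binds MDM2, and DDB2 (-1.03 ± 0.66), a sensor of ultraviolet damage, none past the threshold. The corresponding genes in mRNA were DDB2 (-0.41 ± 0.17), TIGAR (-0.46 ± 0.20), CDK1 (0.23 ± 0.10) and CDKN2A (-0.23 ± 0.12), also not past it. For translational efficiency at 36 h they included PERP (0.76 ± 0.24), FUCA1 (0.89 ± 0.39) and TOP2A (-0.39 ± 0.17), with adjusted p of 0.780 for each.

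At 72 h PLK1 was the only gene of the lists that was called, 1 of 64 tested in mRNA against 2.69% of all tested genes. In mRNA 6 of the 64 had an unadjusted p under 0.05 (edgeR), against 14.8% of all tested genes. PLK1 is a mitotic kinase on the list of genes lowered through p21 and the DREAM complex. Its mRNA was at 127 and 135 CPM in Cas9 and at 198 and 178 CPM in dCas9 cells. The PLK1 log2 change was -0.52 ± 0.12 (SE, adjusted p = 0.0726, edgeR), and the other 11 genes of that list were not called, with 9 of the 12 above 0 and a median log2 change of 0.13. Without Cas9 replicate a or replicate b the call of PLK1 was lost, at log2 changes of -0.48 and -0.58 (adjusted p = 1.00 and 0.224), and it was kept without dCas9 replicate a (-0.44, adjusted p = 0.069) and with GC correction (-0.42, adjusted p = 0.0046). PLK1 footprints overlapped, at 314 and 306 against 323 and 309 CPM. Next in mRNA were CDK1 (0.45 ± 0.15), CMBL (-0.48 ± 0.16) and FANCC (-0.44 ± 0.17), none past the threshold.
In footprints at 72 h 0 of 64 genes were called and 5 had an unadjusted p under 0.05 (edgeR), against 3.83% of all tested genes. COP1 (0.41 ± 0.18), AEN (0.21 ± 0.13) and POLH (0.27 ± 0.18) were among the closest beside the 9 genes. In translational efficiency 0 of 64 were called and 9 had an unadjusted p under 0.05 (edgeR), against 11.2% of all tested genes. PLK1 (0.50 ± 0.14), PIDD1 (0.87 ± 0.33), CMBL (0.51 ± 0.21) and CCNG1 (-0.66 ± 0.27) were the closest beside the 9 genes. Of the arrest targets, RPRM, BTG2, PLK2, GTSE1 and CCNG1 were among those tested beside the 2 described above, and PLK3 and SFN were too low to be tested at either time. Also too low were GDF15, DRAM1, GLS2 and SPATA18 of the antioxidant, metabolic and autophagy targets, and TP53I3 of the apoptosis targets. GDF15 had at most 5 mRNA reads.

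In the ratio of footprints to mRNA in dCas9 cells, the role lists differed in direction. Of the 15 p53 regulators, 9 were called below and 2 above the typical gene at 72 h, with a median log2 ratio of -0.58 against -0.055 over all tested genes, and at 36 h 8 were below and 2 above. Beside MDM2, MDM4 and, at 72 h, PPM1D, those below were COP1, a ubiquitin ligase of p53 (-1.25 at 36 h and -1.30 at 72 h), USP7, a deubiquitinase of MDM2 and p53 (-0.72 and -0.58), CCNG1 (-0.41 and -1.004), and the ribosomal proteins RPL5, RPL11 and RPL23 (-1.06 to -0.91 at 36 h and -1.07 to -0.94 at 72 h), whose counts are less certain because of near-identical copies. CDKN2A (2.13 and 2.03) and PHLDA3 (1.34 and 1.27) were above. CDKN2A was counted on 147 codons at 36 h and 137 at 72 h, and its transcripts for different proteins were not separated. The background for these calls is 24.6% of all tested genes below and 23.6% above at 36 h, and 37.8% and 32.7% at 72 h. The part of coding length and GC content in the ratios of the lists was not tested either.
Of the antioxidant, metabolic and autophagy targets, 9 of 11 tested were above and 1 below at 72 h, and 5 above and 1 below at 36 h. Above at both times were ALDH4A1, CMBL, FDXR, SCO2 and SESN2, and at 72 h also PRKAB1, TIGAR, TSC2 and ULK1, while FUCA1 was below at 36 h. Of the apoptosis targets at 72 h, BID, PERP, PMAIP1 and TNFRSF10A were above beside BAX and BBC3, and APAF1 and PIDD1 below. At 36 h BID and PERP were above beside BBC3. RPRM and BTG2 were above at both times, RPRM by 3.002 and 2.74 on the log2 scale, and GTSE1 at 36 h. Of the repair targets, FANCC was above and XPC and POLH below at both times. Of the genes lowered through p21, CCNB1, CDC20, CDK1, MCM5 and PLK1 were above at both times, BIRC5 and CDC25C at 72 h, and AURKA (36 h) and KIF23 (72 h) below.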

How the data were processed

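Ribosome footprints (8 libraries) and mRNA (9 libraries) were analysed from the counts per transcript that the authors deposited. Per the labels' processing notes reads were aligned with HISAT2 2.1.0 to GRCh38, while the study's methods name hisat2 with an earlier GENCODE release for 36 h and tophat with a later release for 72 h. Counts cover coding sequence without its ends. Transcripts were matched by identifier to GENCODE 44, and 1 transcript was kept per gene and time point, that with the most counts summed over all libraries. Tested genes had to average 20 or more counts in footprint and in mRNA libraries (9016 at 36 h, 10896 at 72 h) with edgeR 4.0.16 (R 4.3.3, TMM, quasi-likelihood test, false discovery rate 0.1, Benjamini-Hochberg adjustment), after the script had been tested on simulated data. Footprints and mRNA were fitted separately, translational efficiency in a joint model as the interaction of nuclease and library type. The joint model gave each gene 1 spread for both library types, although these differ in spread, so its SE and p at 36 h may be too small. CPM are counts divided by the TMM-scaled total over tested genes, times 1000000. DESeq2 1.42.0, other scalings, GC correction, replicate blocks, no count minimum and leaving out each library were alternatives. At 36 h footprint and mRNA libraries of a letter came from 1 divided lysate, and deviations from the group means correlated by 0.0101 to 0.0761. At 72 h letters shared between Cas9 and dCas9 gave -0.139 in mRNA and 0.0123 in footprints and were not taken as pairs. Replicates are separate plates of pooled electroporations of 1 line, and intervals rest on 2 or 3 libraries a group. The named genes are the 9 genes, every listed gene past the threshold and, where fewer than 4 passed, the 4 with the smallest p, except that results of some listed genes are not reported here. The genes, lists and comparisons were chosen with earlier results of these data known. The transcripts described for MDM4 were grouped after their values were seen.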

Additional observations from a re-analysis of the deposited data

Results flagged for a closer look

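GADD45A footprints lay on opposite sides at the 2 time points. The log2 change of Cas9 over dCas9 was -0.82 at 36 h, where both Cas9 libraries were below both dCas9 libraries, and 0.48 at 72 h, where both were above. The difference between the time points was not tested, neither value passed the false discovery rate, and guides and annotation changed together with time. The 36 h value rests on 12 to 130 footprints per library.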

How the results depend on the processing

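Of 666 values of the 9 genes for Cas9 against dCas9 under the alternatives, 612 kept their direction and side of the threshold, 42 reversed and 12 passed it newly, and the cause was not tested. DESeq2 called 0 genes higher in mRNA and 1 in translational efficiency at 36 h, and at 72 h 0 lower in footprints and 212 higher and 9 lower in translational efficiency, with CDKN1A footprints at -0.0016. Median-ratio scaling gave 0 higher in mRNA at 36 h, 183 lower in mRNA at 72 h, and 164 higher and 6 lower in translational efficiency. Without a count minimum mRNA had 0 higher and 2 lower at 36 h, and 12 and 493 at 72 h, footprints 5 higher and translational efficiency 223 higher and 37 lower at 72 h. With both library types in 1 fit, mRNA had 0 higher at 36 h and 46 higher and 567 lower at 72 h, and footprints 0 and 0.

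GC correction gave at 72 h 6 higher in footprints, 1030 higher and 1397 lower in mRNA (2 of the 9 genes), and 412 and 113 in translational efficiency, with BAX translational efficiency at -0.029, CDKN1A footprints at -0.0106 and MDM2 mRNA at -0.0345. Libraries of 72 h share only a letter, while those of 36 h pair by lysate. The replicate block left 0 calls in translational efficiency at 36 h and gave at 72 h 6 higher in footprints, 138 higher and 587 lower in mRNA and 0 lower in translational efficiency, with BBC3 translational efficiency at -0.0802 at 36 h, and it called none of the 9 genes. GC correction with the replicate block gave 6 higher in footprints, 1369 and 1671 in mRNA (2 of the 9 genes), and 493 and 136 in translational efficiency, with BAX at -0.0343 and MDM2 mRNA at -0.0358. The crossed pairing, added after seeing the data, gave 188 higher and 641 lower in mRNA and 216 and 33 in translational efficiency.

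When each library was left out in turn, and a lone library was assumed to vary like the other groups, calls at 36 h ranged from 0 to 52 higher and 0 to 20 lower in footprints, 0 to 152 and 0 to 66 in mRNA (0 to 2 of the 9 genes), and 0 to 293 and 0 to 181 in translational efficiency (0 to 1 of the 9). At 72 h they ranged from 0 to 21 higher and 1 to 20 lower in footprints, 0 to 1726 and 5 to 1102 in mRNA (0 to 3 of the 9), and 1 to 592 and 0 to 473 in translational efficiency (0 to 2 of the 9). The highest counts at 36 h came without dCas9 replicate d, and those of mRNA and translational efficiency at 72 h without mRNA dCas9 replicate b. For footprints against mRNA in dCas9 cells at 36 h, 3 to 5 of the 9 were called, with RRM2B from -0.1379 to 0.9107 and SESN1 from -0.2437 to 0.0572.
Log2 changes that turned sign at 36 h ranged in footprints from -0.2494 to 0.3695 (BAX), -0.6688 to 0.5997 (BBC3), -0.4519 to 0.3846 (MDM2) and -0.3915 to 0.418 (RRM2B). In mRNA they ranged from -0.0562 to 0.1313 (BBC3), -0.1473 to 0.075 (GADD45A), -0.0783 to 0.1622 (MDM4) and -0.1357 to 0.8339 (RRM2B). In translational efficiency they ranged from -0.0438 to 0.5963 (BAX), -0.7019 to 0.5659 (BBC3), -1.0 to 0.7256 (CDKN1A), -0.6816 to 0.1568 (MDM2) and -0.9461 to 0.0735 (RRM2B).
At 72 h the ranges in footprints were -0.0798 to 0.3094 (BBC3) and -0.378 to 0.4776 (CDKN1A). In mRNA they were -0.1236 to 0.2528 (BBC3), -0.0381 to 0.4182 (CDKN1A), -0.0511 to 0.3899 (MDM2) and -0.3761 to 0.1094 (MDM4). In translational efficiency they were -0.0599 to 0.2143 (BAX), -0.1279 to 0.3351 (BBC3), -0.5556 to 0.3027 (CDKN1A) and -0.0458 to 0.33 (MDM2). Footprint counts of MDM4, CDKN1A and RRM2B at 36 h, at 8 to 10 in the shallowest library, limit what could be detected.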
